A study of Mus musculus with 3 samples.

Results

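The interleukin 1 family genes examined here are 10 of the 22954 genes in the tables. They were chosen by name, with no measured value in the rule. They are the ligands Il1a, Il1b, Il18 and Il33, the receptor antagonist Il1rn, the receptors Il1r1, Il1r2, Il1rl1 and Il18r1, and the inflammasome sensor Nlrp3, and all 10 had values in all 3 libraries. Each library is the lung of 1 mouse, labelled WT, with no age in the labels, and female (the methods give an age for the mice of the study in general) C57BL/6J by the study's methods, taken 5 months after 13 Gy to the thorax. One mouse was irradiated at a conventional dose rate (CONV). Another was irradiated in the same way after intraperitoneal injections of AsiDNA, a short double-stranded DNA that mimics a DNA break, at 100 mg/kg on the days before and 200 mg/kg on the day of irradiation (CONV AsiDNA). The last was irradiated at an ultra-high dose rate (FLASH). All 3 mice were irradiated, and controls without irradiation were not analysed here.

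Interleukin 1 ligands are alarm signals. Il1a and Il1b act through Il1r1, Il1rn occupies that receptor without signalling, and Il1r2 is a decoy that binds the ligand but lacks the signalling tail. Il33 is stored in the nucleus of barrier cells and acts through Il1rl1, also called ST2, on mast cells, group 2 innate lymphoid cells (ILC2) and regulatory T cells. Il18 acts through Il18r1 on natural killer (NK) and T cells, and Nlrp3 assembles the complex whose protease ripens Il1b and Il18. In the lung, Il33 of alveolar type 2 (AT2) cells and Il1b of neutrophils and macrophages are among the best known members.

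With 1 mouse per condition no test between conditions was possible, so the values describe these 3 libraries. The CONV, CONV AsiDNA and FLASH tables kept 6371, 6981 and 6267 cells, of which 97.1%, 98.0% and 96.6% met the gate of a single class or lineage. Their values are whole numbers per gene and cell after the authors' own depth adjustment (adjusted counts), with median totals of 3450, 3678 and 3621 in a cell. Mitochondrial genes made up 0.628%, 0.180% and 1.35% of the median cell. A cell joined the class with the highest share of its marker genes above 0, given at least 3 of them and none of the genes that class must lack. No member was among these genes. The class names below stand for cells like that type (neutrophil-like, AT2-like and so on), and 107 of 112 further check genes were above 0 at least 2 times as often in their class as in all other cells. Of the 4 such genes in each class, 2 passed in cDC2, Tnfsf9 and Tnip3, and 2 in plasma cells (6 cells). A level is a gene's sum over the cells of a class per 1000000 adjusted counts of that class (CPM), and a share of cells carries an exact 95% binomial interval, which covers the sampling of cells only. Across the 3 libraries 84 cells carried a barcode that occurred in another library as well.

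The members were divided among classes. Il1b and Il1r2 led in neutrophils, Il33 in AT2 cells and Il18 in alveolar macrophages in every library. With alveolar macrophages taken as a whole, the leading class of the other 6 differed between libraries, among classes of at least 20 cells. For Il1rl1 and Il1r1 this depended on that limit. Mast cells numbered 4 in FLASH and adventitial fibroblasts 16 in CONV, so they were not ranked there. B cells are a class that should lack the family. Of 1321, 1593 and 1148 B cells, none was above 0 for 7 of the members, and 1 FLASH cell each was above 0 for Il1rn, Il18 and Il18r1. The authors' adjustment may itself have set values to 0, so the B cells cannot show how much stray RNA was present. A gene with no value above 0 is described as listed at 0, with no limit attached, since the values were adjusted by the authors.

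**Figure D1:**
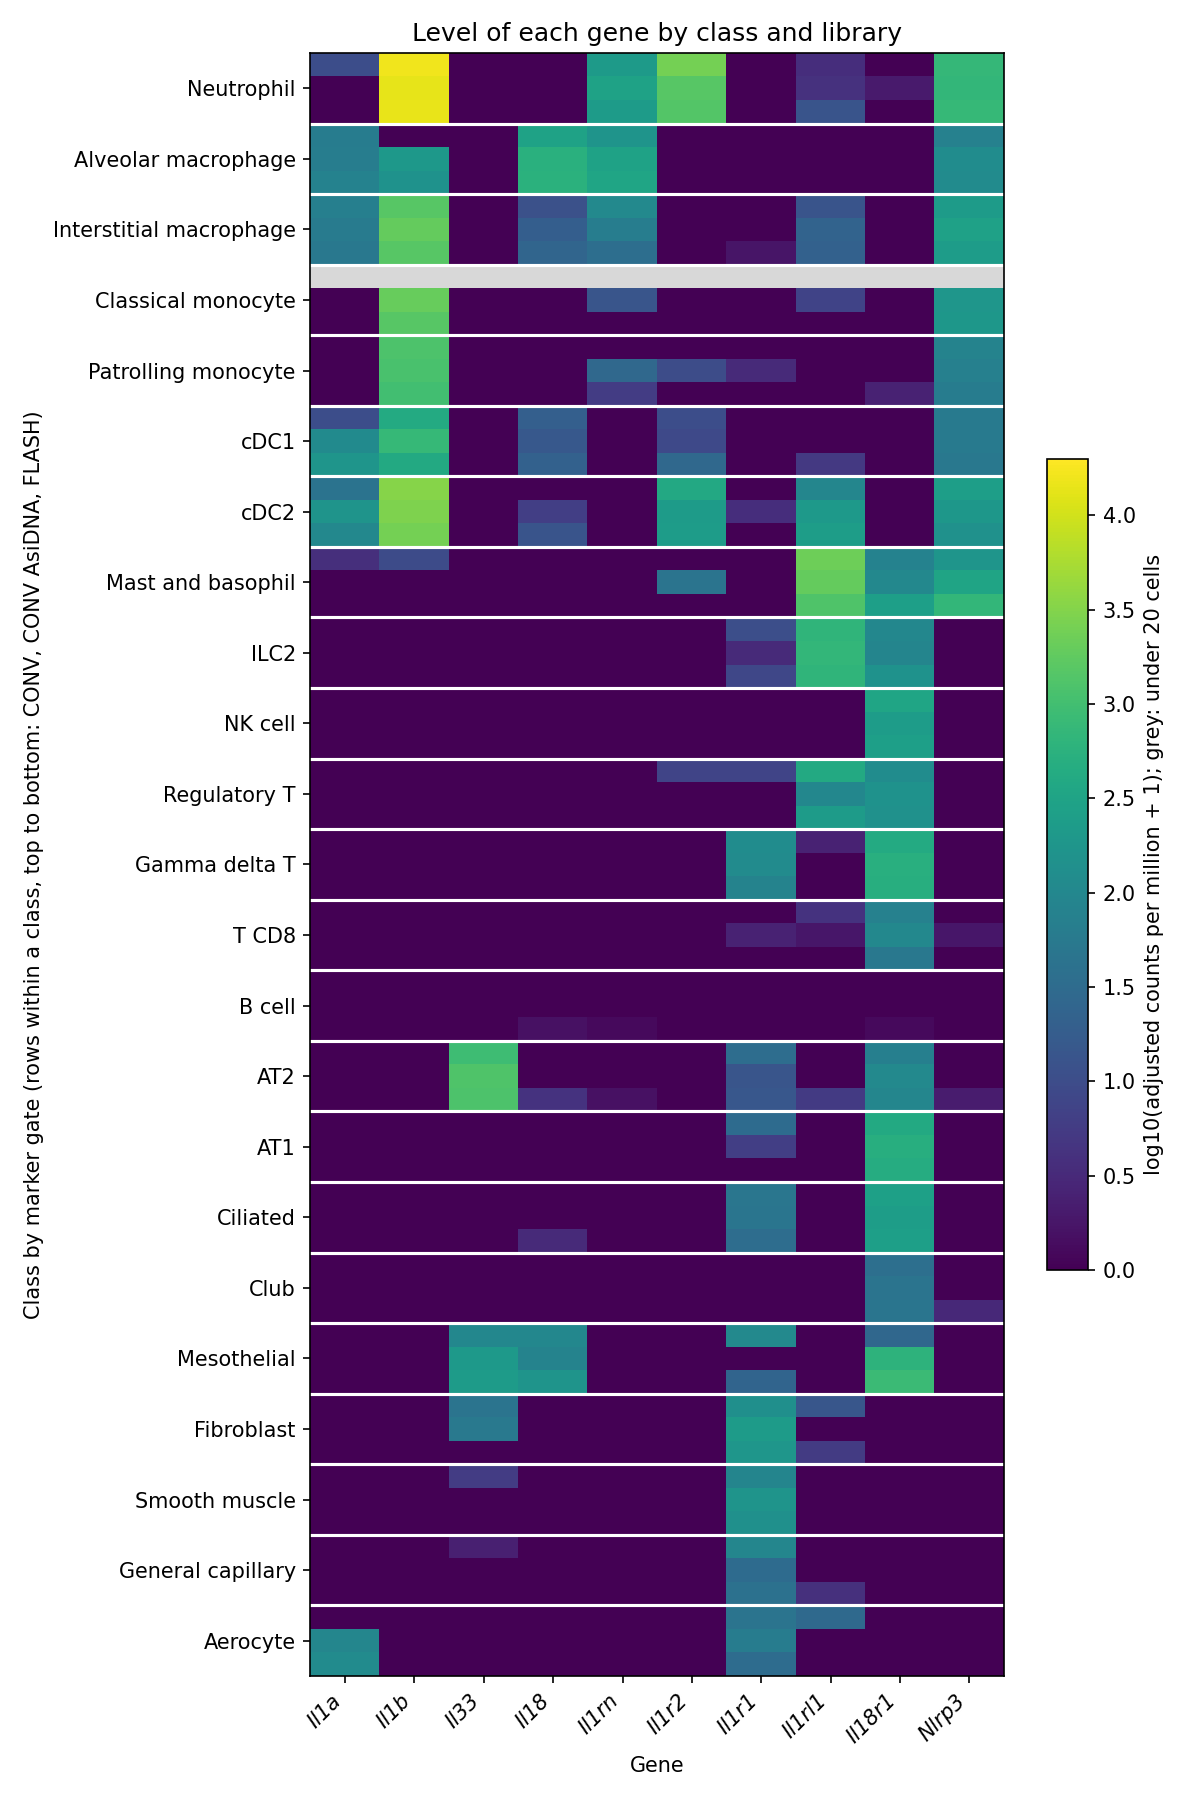
Heat map of the level of each gene (columns) in each class (blocks of 3 rows, one per library) as log10 of adjusted CPM plus 1, with grey for classes under 20 cells. Il1b and Il1r2 peak in neutrophils, Il33 in AT2 cells, Il18 in alveolar macrophages and Il1rl1 in mast cells, basophils and ILC2.

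Il1b, the secreted interleukin 1 ligand of myeloid cells, was a neutrophil transcript in all 3 lungs. Neutrophils numbered 265, 311 and 303, and their level was 15963 CPM in the CONV library, 13759.6 in the CONV AsiDNA library and 14179 in the FLASH library. It was above 0 in 98.5% (interval 96.2 to 99.6), 94.2% (91.0 to 96.5) and 93.1% (89.6 to 95.7) of them. The median neutrophil held 42, 42 and 44 adjusted counts, with upper quartiles of 58, 57.5 and 59 and highest cells of 109, 115 and 128. The 3 distributions overlapped, and the log2 ratio of CONV to FLASH was 0.17. Neutrophils carried 74.3%, 59.2% and 68.7% of all Il1b in the CONV, CONV AsiDNA and FLASH libraries.

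Il1b is encoded on the minus strand of chromosome 2 (GRCm38, 129364570 to 129371139), beside Il1a at 129299610 to 129309972. The gene overlaps the antisense transcript Il1bos. Because it was the most abundant member, its promoter from RefSeq (GRCm38.p6, minus strand, chr2:129371090-129371389, around the start of transcription) is shown with the TATAAA motif in capitals, searched on both strands. The motif occurred once, as it did in windows of Il1a, Il18, Il33 and Il1rn. Of all 32851 windows of this length, 13.6% hold it.
Il1b: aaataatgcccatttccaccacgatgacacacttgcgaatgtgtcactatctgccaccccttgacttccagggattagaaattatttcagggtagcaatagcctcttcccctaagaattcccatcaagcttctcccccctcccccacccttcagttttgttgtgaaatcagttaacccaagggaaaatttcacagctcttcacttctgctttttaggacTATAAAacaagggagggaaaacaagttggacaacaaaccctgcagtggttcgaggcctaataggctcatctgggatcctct

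Conventional dendritic cells of type 2 (cDC2), which present antigen to helper T cells, held the next highest Il1b, at 3266, 2894 and 2508 CPM. The gene was above 0 in 68.8%, 71.6% and 67.4% of these 48, 176 and 135 cells. Interstitial macrophages held 1506, 1918 and 1539 CPM, above 0 in 45.3%, 50.1% and 44.3% of 468, 435 and 327 cells. Classical monocytes were at 1998 CPM in CONV AsiDNA and 1543 in FLASH, and only 17 were found in CONV, too few for a level. Patrolling monocytes had 1272, 1177 and 1004 CPM. In none of these classes did the level differ by 2-fold between libraries. The share above 0 in patrolling monocytes was 42.2% (27.7 to 57.8) of 45 CONV cells, 64.8% (58.2 to 70.9) of 230 CONV AsiDNA cells and 60.9% (55.5 to 66.1) of 343 FLASH cells, and the CONV interval overlapped that of FLASH but not that of CONV AsiDNA.

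Alveolar macrophages, the resident scavengers of the air space, differed between libraries in Il1b. The gene was listed at 0 in all 1007 CONV cells. It was at 193 CPM with AsiDNA, above 0 in 15.2% (12.5 to 18.1) of 665 cells, and at 156 CPM in FLASH, above 0 in 14.8% (11.7 to 18.3) of 481 cells. Of the 5148 genes above 0 in at least 10% of the alveolar macrophages of both other libraries, 2 were listed at 0 throughout CONV, Il1b and Patj, which is 0.0389%. The same CONV library held 212 interstitial macrophages above 0 for Il1b. In all 3 libraries Il1b was listed at 0 in every AT2 cell. How the authors adjusted background is not given, and its part in the 0 values of the CONV alveolar macrophages was not tested.

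Il1r2, the decoy receptor, followed the same class. Neutrophils held 2519, 1515 and 1424 CPM, with the gene above 0 in 96.6% (93.7 to 98.4), 92.0% (88.4 to 94.7) and 91.7% (88.1 to 94.6) of cells. The median neutrophil had 6, 4 and 4 adjusted counts, with upper quartiles of 10, 7 and 6. The CONV neutrophils were thus shifted upward, by a log2 ratio of 0.73 against CONV AsiDNA and 0.82 against FLASH, both short of 2-fold. Of the cells above 0 for Il1b, 97.3%, 93.2% and 91.8% were above 0 for Il1r2 as well. cDC2 were the other source, at 387, 232 and 235 CPM, and the share of the library's Il1r2 that neutrophils carried was 94.2%, 87.1% and 88.8%.

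Nlrp3, the sensor, was highest in neutrophils at 737, 691 and 746 CPM, above 0 in 66.0%, 71.4% and 75.2% of them. Basophils were close to this level, at 524 CPM in CONV AsiDNA (39 cells) and 813 in FLASH (22 cells), and stood above neutrophils in FLASH. Interstitial macrophages held 232, 288 and 240 CPM, cDC2 260, 187 and 151, and classical monocytes 178 in CONV AsiDNA and 189.97 in FLASH. In alveolar macrophages Nlrp3 was lower in CONV, at 75.6 CPM against 124 and 116, and 28.2% (25.4 to 31.1) of the CONV cells were above 0 against 40.3% (36.5 to 44.1) and 42.0% (37.5 to 46.5).

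In neutrophils 4 members could be compared, and none was past 2-fold in any pair. Among all 4421 genes tested in neutrophils, 14% were at or past 2-fold for CONV against CONV AsiDNA, 15.5% for CONV against FLASH and 11% for CONV AsiDNA against FLASH. In patrolling monocytes, where 17.4%, 17.8% and 2.82% of genes were past 2-fold in these pairs, Il1rn alone of 3 members was past it, in both pairs with CONV AsiDNA. It was at 27.5 CPM there, at 4.71 in FLASH and listed at 0 in CONV, with 8 CONV AsiDNA cells above 0.

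**Figure D2:**
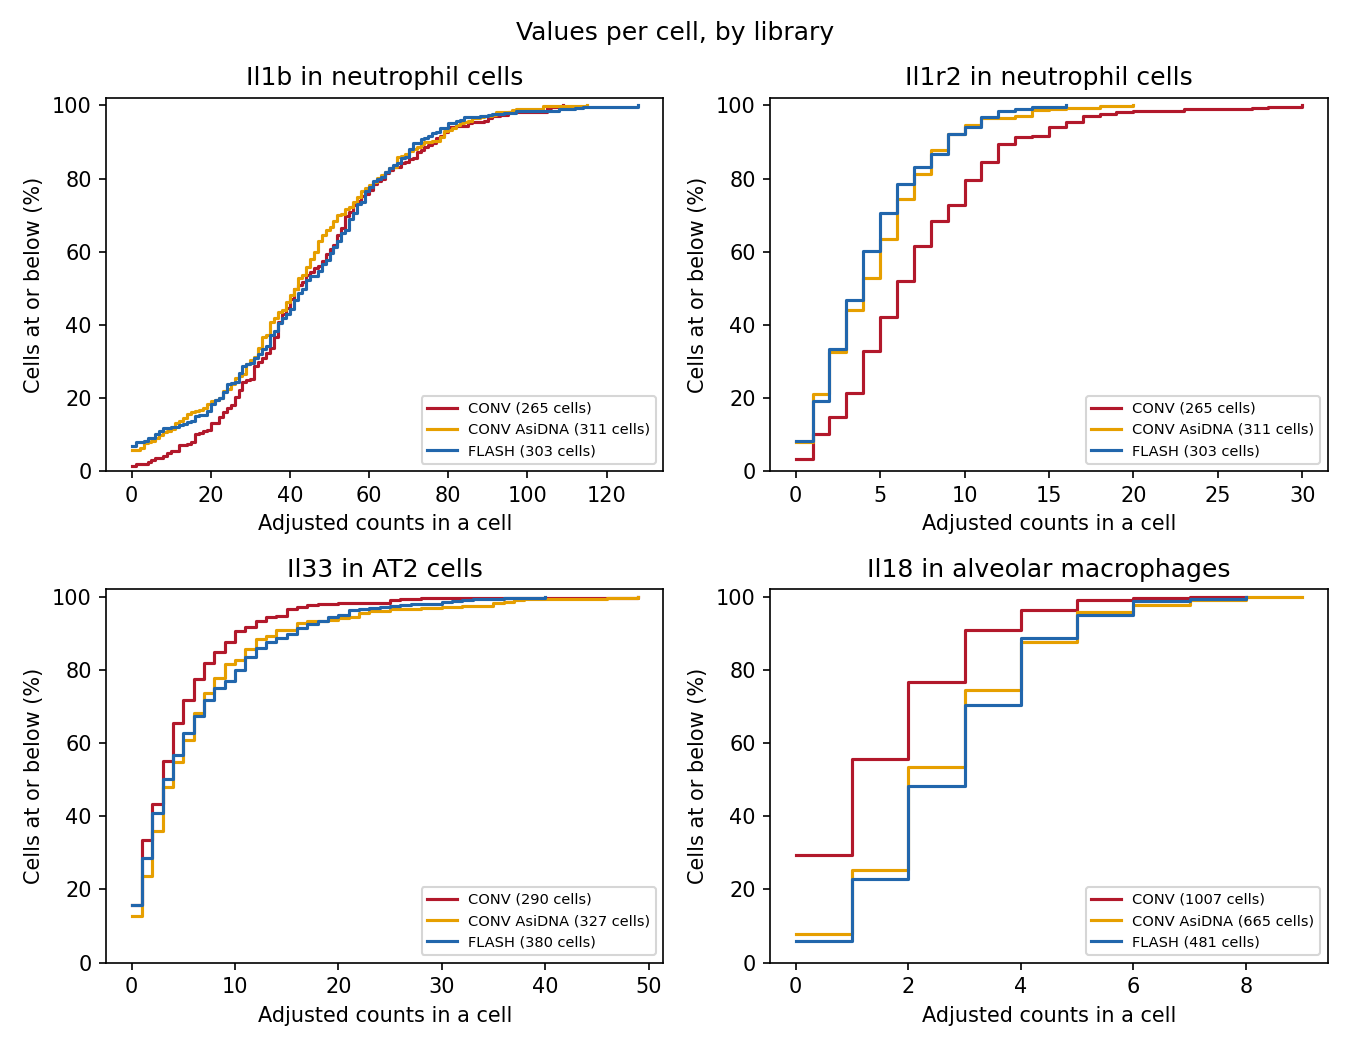
Cumulative share of cells (vertical axis, percent) at or below each number of adjusted counts per cell (horizontal axis) for Il1b and Il1r2 in neutrophils, Il33 in AT2 cells and Il18 in alveolar macrophages, one line per library. The Il1b lines lie together, the CONV line for Il1r2 lies to the right and the CONV lines for Il33 and Il18 lie to the left.

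Alveolar macrophages carried most of the Il18 and Il1rn of each library. Il18, the ligand of NK and T cells, was at 297, 526 and 549 CPM, and 70.7% (67.8 to 73.5), 92.2% (89.9 to 94.1) and 94.2% (91.7 to 96.1) of the cells were above 0. The median alveolar macrophage held 1, 2 and 3 adjusted counts. Il1rn, the antagonist, was at 168, 303 and 332 CPM, above 0 in 43.2% (40.1 to 46.3), 71.3% (67.7 to 74.7) and 70.3% (66.0 to 74.3). CONV was lowest for both genes with no overlap of the intervals, and the log2 ratios of CONV to FLASH were -0.87 for Il18 and -0.94 for Il1rn, each short of 2-fold. The median log2 ratio over all genes tested in these cells was -0.18 for CONV against CONV AsiDNA and -0.15 for CONV against FLASH.

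These alveolar macrophages differed in make-up. Cells with more of Spp1, Gpnmb and Mfge8 than of Ear1, Krt79 and Cidec above 0 made up 72.5%, 22.6% and 13.9% of the class. Within those cells Nlrp3 was at 72.6, 83.6 and 65.7 CPM, so CONV was not lowest there. Within those cells Il18 was at 254, 387 and 357 CPM and Il1rn at 156, 283 and 177. Within the cells with more of Ear1, Krt79 and Cidec, which numbered 99, 395 and 339, Il18 was at 439, 590 and 597 CPM and Il1rn at 233, 322 and 382. Nlrp3 was at 85.7, 147 and 132 CPM in these, lowest in CONV. CONV was lowest for Il18 and Il1rn in both subsets. For these genes the log2 ratio of CONV to FLASH was nearer 0 in each subset than in all alveolar macrophages. For Il18 it was -0.48 in the first subset and -0.44 in the second. For Il1rn it was -0.17 and -0.69. The log2 ratio of CONV to CONV AsiDNA was -0.59 and -0.42 for Il18. For Il1rn it was -0.82 and -0.45, against -0.81 in the whole class, so the first subset was not nearer 0 for this gene and pair. The part of this make-up in the differences was not tested further. Il1b was listed at 0 in each subset of CONV. In the first subset it was at 174 CPM in CONV AsiDNA and 40.02 in FLASH, past 2-fold apart. It was above 0 in 25 of 150 CONV AsiDNA cells (16.7%, 11.1 to 23.6) and 4 of 67 FLASH cells (5.97%, 1.65 to 14.6). These intervals overlapped. Of the 8043 genes tested in this subset, 247 were past 2-fold higher in CONV AsiDNA than in FLASH and 76 lower.

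Of the 5 members tested in alveolar macrophages, Il1b was the only one past 2-fold for CONV against CONV AsiDNA and for CONV against FLASH, and in the class as a whole none was so for CONV AsiDNA against FLASH. The shares of all genes past 2-fold were 4.88%, 5.79% and 0.991%. These cells carried 97.7%, 96.5% and 93.3% of the library's Il18. Mesothelial cells were the next class at 96.6, 83.0 and 167 CPM. Il1rn was shared with neutrophils, at 218, 297 and 224 CPM, and with interstitial macrophages, where the order of the libraries was the opposite of that in alveolar macrophages. There Il1rn was at 103.4, 64.6 and 34.4 CPM, above 0 in 14.96% (11.8 to 18.5), 11.3% (8.45 to 14.6) and 5.20% (3.06 to 8.19). The log2 ratio of CONV to FLASH was 1.35. It was the only one of 6 members past 2-fold in interstitial macrophages, in this pair alone, beside 3.11%, 5% and 2% of all genes in the 3 pairs.

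Il1a, the ligand that cells release on injury, was low and spread over several classes. Alveolar macrophages held 63.2, 66.0 and 78.4 CPM, above 0 in 22.5%, 22.6% and 26.4%, and interstitial macrophages 71.8, 60.7 and 52.1. These levels did not differ by 2-fold. Those in conventional dendritic cells did. In cDC1, which cross-present antigen to CD8 T cells, Il1a was at 9.36, 114 and 176 CPM over 45, 143 and 105 cells. In cDC2 it was at 42.5, 167 and 101 CPM. In aerocytes, the large capillary cells of gas exchange, it was listed at 0 in all 67 CONV cells, at 94.7 CPM in CONV AsiDNA with 26.5% (20.0 to 33.8) of 170 cells above 0, and at 118 CPM in FLASH with 35.8% (28.7 to 43.2) of 179 above 0. It was lowest in CONV in both dendritic classes. Ftl1, Ctsd and Ezr were likewise listed at 0 in the CONV aerocytes, so no level was ranked there.

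In cDC1, where the CONV level rests on a sum of 2 adjusted counts, the log2 ratio of CONV to the others was -2.68 and -3.27 for Il1a, which was the only one of 5 members past 2-fold in these pairs. Il1r2 was past 2-fold for CONV AsiDNA against FLASH, at 7.80 and 27.3 CPM. Of all genes in cDC1, 9.85%, 11.6% and 3.96% were past 2-fold in the 3 pairs. In cDC2 the members past 2-fold were Il1a and Il1rl1, in both pairs with CONV, against 12.1%, 12.7% and 4.32% of all genes. In aerocytes, with 13%, 13.5% and 3.95% of genes past 2-fold, Il1a was 1 of 14 genes listed at 0 in CONV among 4578 above 0 in at least 10% of the cells of both other libraries, a share of 0.306%. Gpnmb, Mfge8, Ctsd and Ftl1, genes that macrophages make at high levels, were among the other 13, and the part of macrophage RNA in this result was not tested.

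**Figure D3:**
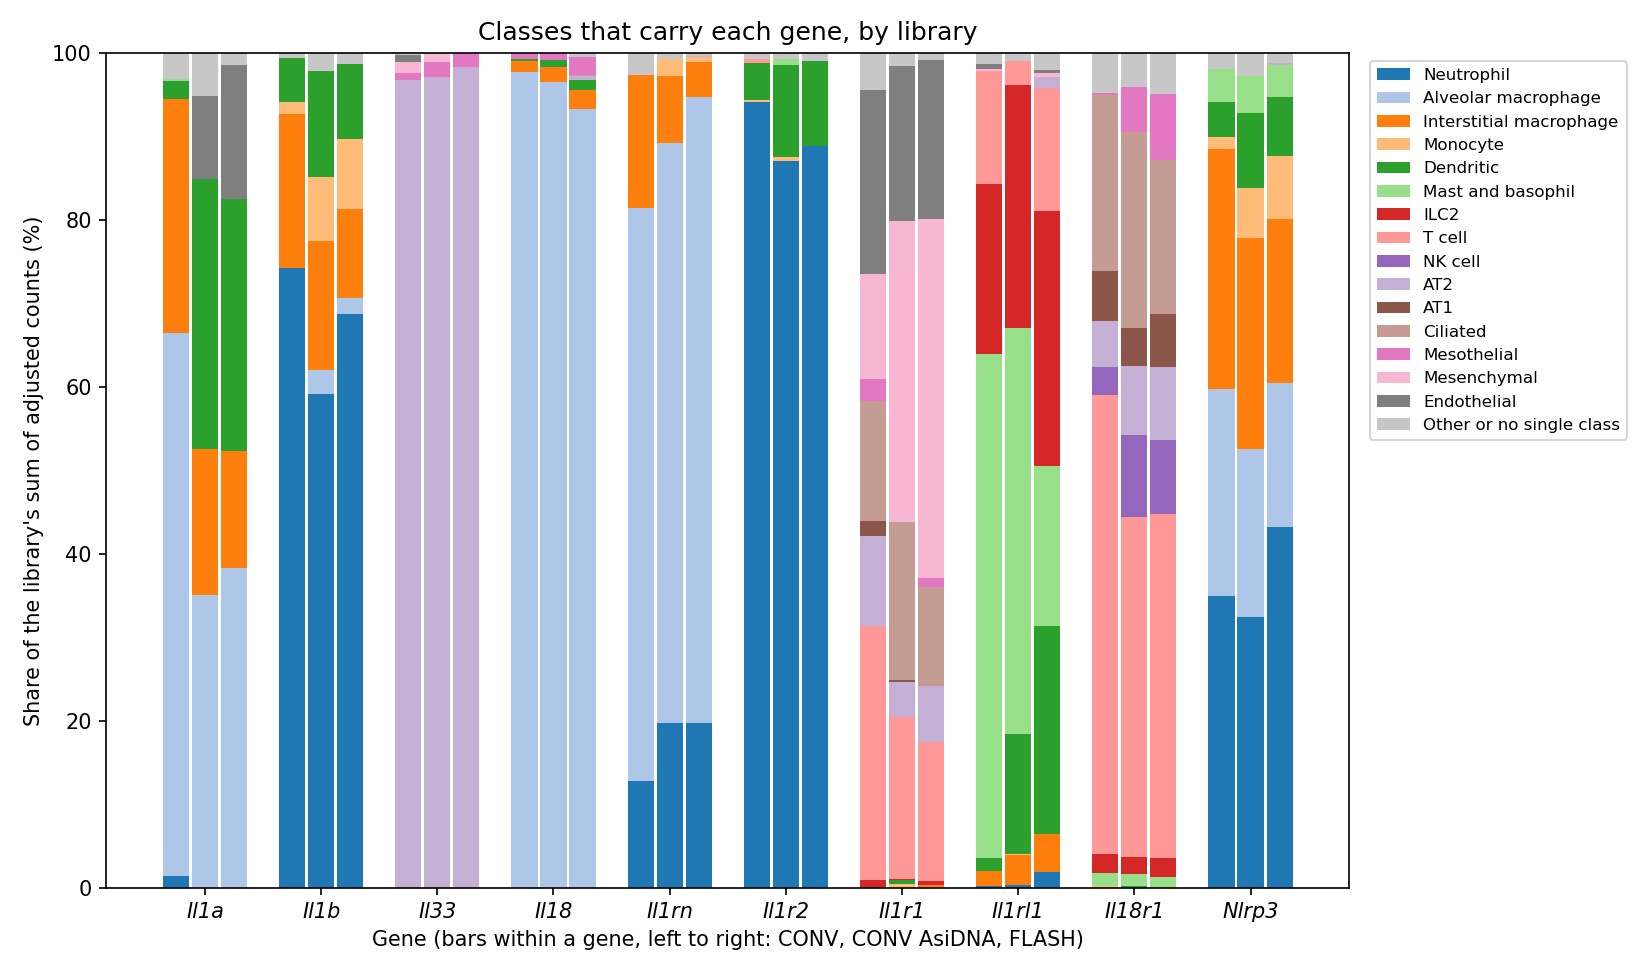
Stacked bars of the share of each gene's sum of adjusted counts (percent) that each class carried in each library, in the order CONV, CONV AsiDNA and FLASH. Il33, Il18 and Il1r2 each come from nearly one class, while Il1r1, Il18r1 and Nlrp3 are spread over many.

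Il33 belonged to AT2 cells, the surfactant makers that renew the alveolar lining. Their levels were 924, 1296 and 1257 CPM over 290, 327 and 380 cells. The gene was above 0 in 84.1% (79.4 to 88.1), 87.2% (83.0 to 90.6) and 84.2% (80.1 to 87.7), so the shares overlapped and the libraries differed more in the upper part of the distribution. The median AT2 cell held 3, 4 and 3 adjusted counts, the upper quartiles were 6, 8 and 8.25 and the highest cells 49, 49 and 40. The log2 ratio was -0.48 for CONV against CONV AsiDNA and -0.44 for CONV against FLASH. Of the 3 members tested in AT2 cells, which include Il1r1 and Il18r1, none was past 2-fold, where 4.79%, 5.7% and 1.06% of all genes were. AT2 cells carried 96.7%, 97.1% and 98.3% of all Il33.

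The Il33 gene lies on chromosome 19 (GRCm38, 29925114 to 29960718, plus strand). Outside AT2 cells, Il33 was seen in cells of the mesothelial gate, the lining of the pleura, at 96.6, 205 and 224 CPM (23, 42 and 38 cells), with 21.7% (7.46 to 43.7), 42.9% (27.7 to 59.0) and 47.4% (31.0 to 64.2) above 0. In fibroblasts, which make the matrix, it was above 0 in 7 of 53 CONV cells (43.6 CPM) and 4 of 101 CONV AsiDNA cells (53.7 CPM) and listed at 0 in all 162 FLASH cells. It was 1 of 2 members tested in fibroblasts and the only one past 2-fold, in the pairs with FLASH, where 11.9%, 12.1% and 5.67% of all genes were past 2-fold in the 3 pairs. All 7 CONV cells were among the 16 of the adventitial gate, so this comparison rests on few cells. Endothelial cells that met no single endothelial gate had it in 5 of 63 CONV cells (40.3 CPM), and it was listed at 0 in those of the other libraries.

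Il1rl1, the receptor of Il33, was a gene of mast cells, basophils and ILC2. Mast cells, the tissue granulocytes that release histamine, held 2236 CPM in CONV (87 cells, 94.3% above 0, 87.1 to 98.1) and 2804 in CONV AsiDNA (20 cells, all 20 above 0), and 4 were found in FLASH. Basophils, their counterpart of the blood, held 967 CPM in CONV AsiDNA with 56.4% (39.6 to 72.2) of 39 cells above 0 and 510 in FLASH with 36.4% (17.2 to 59.3) of 22 cells above 0, and 8 were found in CONV. Taken with the cells whose markers fit both, the granulocytes of these types numbered 114, 78 and 27, and Il1rl1 was at 2215, 1948 and 1285 CPM with 93.9% (87.8 to 97.5), 78.2% (67.4 to 86.8) and 48.1% (28.7 to 68.1) above 0. The combined class held fewer mast cells in the libraries with the lower share, and within mast cells the log2 ratio of CONV to CONV AsiDNA was -0.32.

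ILC2, lymphocytes that answer Il33 with type 2 cytokines, held similar levels in the 3 libraries. Il1rl1 was at 651, 712 and 650.0 CPM over 127, 135 and 83 cells. It was above 0 in 71.7% (63.0 to 79.3), 71.9% (63.5 to 79.2) and 60.2% (48.9 to 70.8) of them, and the median cell held 2 adjusted counts in each library. The intervals overlapped, and the log2 ratio of CONV to FLASH was 0.00 beside a median of -0.21 over all genes tested. Il18r1 was lower in ILC2, at 98.6, 90.1 and 155 CPM. Neither of these 2 members was past 2-fold, where 14.7%, 15.3% and 9.05% of all genes in ILC2 were.

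Regulatory T cells, which restrain immune responses and include a tissue-repair type known to carry ST2, differed more. Il1rl1 was at 411, 98.0 and 230 CPM over 98, 52 and 56 cells, above 0 in 37.8% (28.2 to 48.1), 19.2% (9.63 to 32.5) and 33.9% (21.8 to 47.8). The intervals overlapped, while the log2 ratios were 1.96 for CONV against CONV AsiDNA and -1.15 for CONV AsiDNA against FLASH, the latter -0.95 and so short of 2-fold with classes taken from clusters. It was the only one of 2 members past 2-fold, beside 14.6%, 13.7% and 12.2% of all genes in these small classes. cDC2 went the other way, with Il1rl1 at 94.4, 208 and 247 CPM and 33.3% (20.4 to 48.4), 51.7% (44.1 to 59.3) and 55.6% (46.8 to 64.1) of cells above 0, with overlapping intervals and log2 ratios of CONV to the others of -1.06 and -1.30. With classes taken from clusters the first was -0.97.

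Il1rl1 has 2 promoter windows in the RefSeq table, and mast cells and lymphocytes are known to use the distal and fibroblasts the proximal start, on the plus strand of chromosome 1 (GRCm38, 40429570 to 40465415). The reads come from the 3′ end of transcripts and cannot tell the starts apart. Both windows are shown, since nearly all Il1rl1 here lay in blood-derived cells, with matches to GATA motifs in capitals (AGATAA, and likewise AGATAG, and the forms TGATAA as well as TGATAG, on either strand). The distal window, chr1:40429320-40429619, holds 5 and the proximal one, chr1:40439379-40439678, holds 1. At least 1 match occurs in 29.8% of all windows of this length and at least 5 in 0.0548%. A match is a description of the letters and not a site of binding.
Il1rl1 distal: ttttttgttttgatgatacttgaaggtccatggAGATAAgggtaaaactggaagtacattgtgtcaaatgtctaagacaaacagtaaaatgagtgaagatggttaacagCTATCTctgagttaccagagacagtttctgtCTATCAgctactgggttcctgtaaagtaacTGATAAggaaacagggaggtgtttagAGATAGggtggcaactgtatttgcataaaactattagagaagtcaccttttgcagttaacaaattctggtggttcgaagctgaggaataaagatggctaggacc
Il1rl1 proximal: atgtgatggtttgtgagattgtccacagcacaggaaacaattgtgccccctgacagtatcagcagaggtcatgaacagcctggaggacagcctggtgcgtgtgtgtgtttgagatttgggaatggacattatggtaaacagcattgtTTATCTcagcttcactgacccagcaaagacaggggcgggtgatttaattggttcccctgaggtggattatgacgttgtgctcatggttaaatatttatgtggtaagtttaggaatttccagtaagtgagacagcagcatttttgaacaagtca

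**Figure D4:**
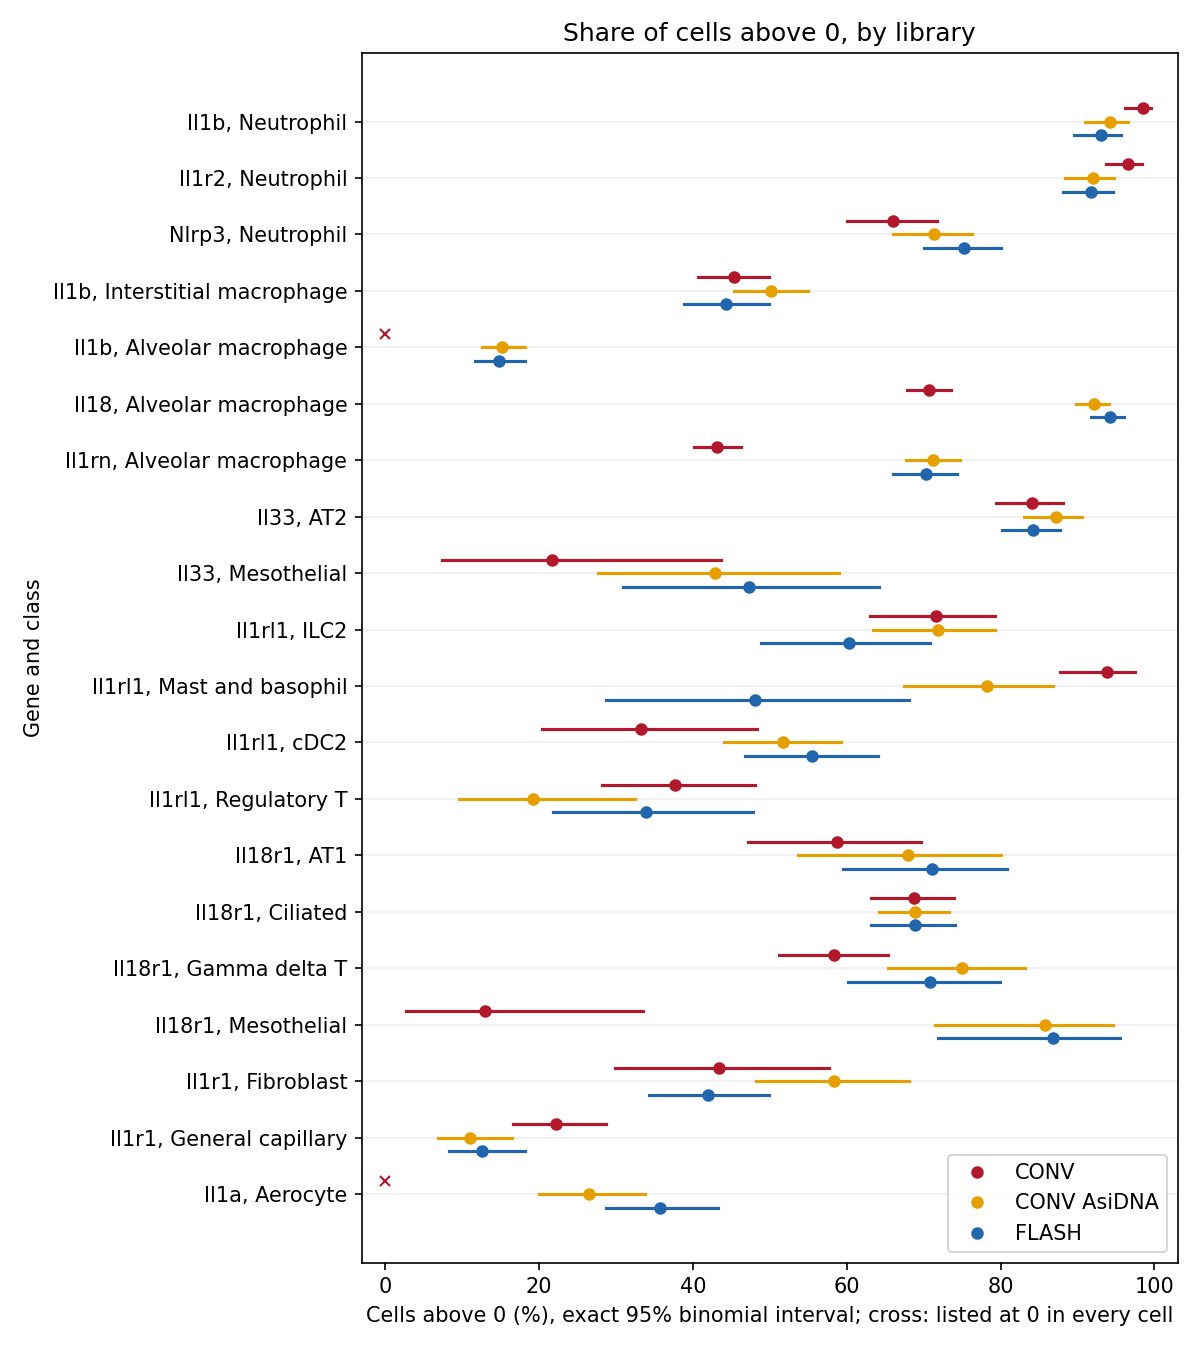
Share of cells above 0 (horizontal axis, percent, with exact 95% binomial intervals that cover the sampling of cells) for 20 pairs of gene and class, one point per library and a cross where the gene was listed at 0. The points for Il33 in AT2 cells and Il1rl1 in ILC2 overlap, while CONV stands below both others for Il18 and Il1rn in alveolar macrophages.

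The cytokines that ILC2 make were counted beside the receptor. Il5, which feeds eosinophils, was at 22.2, 105 and 39.7 CPM in ILC2, and Il13, which drives mucus, at 12.3, 81.3 and 18.1, both highest in CONV AsiDNA. Areg, the growth factor amphiregulin, was at 782, 231 and 419 CPM, highest in CONV. Of the 4 type 2 genes listed, Il4, Il5, Il13 and Areg, 3 could be compared in ILC2. All 3 were past 2-fold for CONV against CONV AsiDNA (1 higher and 2 lower in CONV), none for CONV against FLASH and 2 for CONV AsiDNA against FLASH, beside the 14.7%, 15.3% and 9.05% of all genes in these cells. Il5 was above 0 in 5.51%, 15.6% and 9.64% of ILC2 and Il13 in 3.15%, 6.67% and 2.41%, so few cells decide these levels. Il4 was seen in basophils, at 2123 CPM in CONV AsiDNA and 1709 in FLASH, and in mast cells, at 194 CPM over 87 CONV cells and 342 over 20 CONV AsiDNA cells.

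Areg was also compared in other classes that hold members. It was at 876, 144 and 444 CPM in regulatory T cells and at 1121, 443 and 637 in ciliated cells, highest in CONV and lowest in CONV AsiDNA as in ILC2. In gamma delta T cells, which guard epithelia, it was at 274, 8.77 and 3.34 CPM, the last 2 from 1 cell each. AT2 cells had another order, at 113, 322 and 201 CPM, lowest in CONV. In AT1 cells it was above 0 in 1.89% of 53 CONV AsiDNA cells and 1.32% of 76 FLASH cells, 1 cell each, so the libraries were not ranked there.

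Il1r1, the signalling receptor of Il1a and Il1b, was seen in structural cells and T cells. T cells carried 30.5%, 19.3% and 16.7% of it. By level, adventitial fibroblasts were highest at 317 CPM in CONV AsiDNA (31 cells) and 212 in FLASH (29 cells), with 16 cells in CONV. Alveolar fibroblasts held 120, 191 and 173 CPM, and smooth muscle cells 87.9, 169 and 145. All fibroblasts had 140, 229 and 180 CPM, with 43.4% (29.8 to 57.7), 58.4% (48.2 to 68.1) and 42.0% (34.3 to 50.0) above 0, and no pair differed by 2-fold. Gamma delta T cells were at 124, 117 and 83.5 CPM, above alveolar fibroblasts and smooth muscle cells in CONV and below both in the other libraries. By the mean over libraries the next were endothelial cells that met no single endothelial gate, at 64.5, 79.7 and 94.3 CPM. In gamma delta T cells the gene was above 0 in 29.4%, 32.0% and 20.2%.

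General capillary cells, which seed the other capillary type, had Il1r1 past 2-fold. The level was 92.2, 31.5 and 39.3 CPM over 198, 181 and 190 cells, with 22.2% (16.6 to 28.7), 11.05% (6.88 to 16.5) and 12.6% (8.26 to 18.2) above 0. The CONV interval overlapped that of FLASH. CONV was thus highest, with log2 ratios of 1.30 and 1.05, in a class where 11%, 13.1% and 3.09% of all genes were past 2-fold. The ratio to FLASH fell below 2-fold with a stricter gate (0.96), with cluster classes (0.94) and with equal weight for each cell (0.94). In AT2 cells Il1r1 was at 34.0, 12.7 and 13.7 CPM, highest in CONV and short of 2-fold. There it was above 0 in 14.1% (10.3 to 18.7), 6.12% (3.78 to 9.29) and 6.32% (4.09 to 9.25). Ciliated cells held 47.2, 46.0 and 33.9 CPM.

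Il1rap, the shared co-receptor without which Il1r1 and Il1rl1 do not signal, was above 0 in 30.2%, 17.8% and 14.8% of fibroblasts but in at most 2.21% of general capillary cells, at most 4.44% of ILC2 and at most 4.06% of gamma delta T cells. Neutrophils held it at 275, 285 and 325 CPM. In alveolar macrophages Il1rap was at 20.8, 73.6 and 71.2 CPM. Of the 5 co-receptor and inhibitor genes listed, 3 could be compared there. Il1rap was past 2-fold lower in CONV in both pairs, with log2 ratios of -1.44 and -1.40, where 4.88% and 5.79% of all genes were past 2-fold in either direction. It was also lower in CONV within both subsets described above, at 19.8, 65.3 and 48.6 CPM in the first and 25.9, 74.1 and 79.0 in the second. Il18bp, the soluble trap of Il18, was past 2-fold higher in CONV than in FLASH, at 19.3 and 4.21 CPM. In interstitial macrophages Il18bp was at 66.2, 14.1 and 13.8 CPM, again highest in CONV.

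Il18r1 was spread over lymphocytes and epithelium. T cells carried 55.0%, 40.7% and 41.2% of it and ciliated cells 21.1%, 23.5% and 18.5%. Gamma delta T cells held 420, 512 and 504 CPM, T cells of no named subset 290.0, 371 and 329, other CD4 T cells 165, 142 and 176, and NK cells 336, 233 and 270.0. Basophils held 175 in CONV AsiDNA and 317 in FLASH. CD8 T cells were lower, at 76.3, 101 and 52.0 CPM, regulatory T cells held 123, 156 and 146, and B cells were near 0. Epithelial classes differed too. AT2 cells held 70.2, 106 and 91.5 CPM and club cells of the airway 36.7, 44.5 and 45.7. AT1 cells, the thin cells of gas exchange, were at 406, 486 and 454 CPM (80, 53 and 76 cells), above 0 in 58.8% (47.2 to 69.6), 67.9% (53.7 to 80.1) and 71.1% (59.5 to 80.9), and ciliated cells of the airway were at 277, 248 and 272 CPM, above 0 in 68.8%, 68.9% and 68.8% of 298, 421 and 292 cells. The 3 ciliated shares differed by far less than their intervals.

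Its co-receptor gene, Il18rap, differed between classes that hold Il18r1. In NK cells Il18rap was above 0 in 57.4%, 65.7% and 74.3% of cells, and in 51.6%, 70.2% and 73.4% of those above 0 for Il18r1. In gamma delta T cells it was above 0 in 20.3%, 19.0% and 20.2%. It was listed at 0 in all 87, 20 and 4 mast cells, where Il18r1 was above 0 in 19.5% of the CONV cells. In ciliated cells it was listed at 0 throughout, including the 205, 290 and 201 cells above 0 for Il18r1. In AT1 cells it was above 0 in 1 of 76 FLASH cells and in none of the others, and in AT2 cells in 0.690%, 2.45% and 0.789%. The Il18r1 gene (chromosome 1, 40465552 to 40500854, plus strand) starts 137 bases after the annotated end of Il1rl1, and Il18rap follows it 14508 bases further on. Il1rl1 was listed at 0 in all ciliated and AT1 cells, so the Il18r1 values there stood without values of its upstream neighbour.

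**Figure D5:**
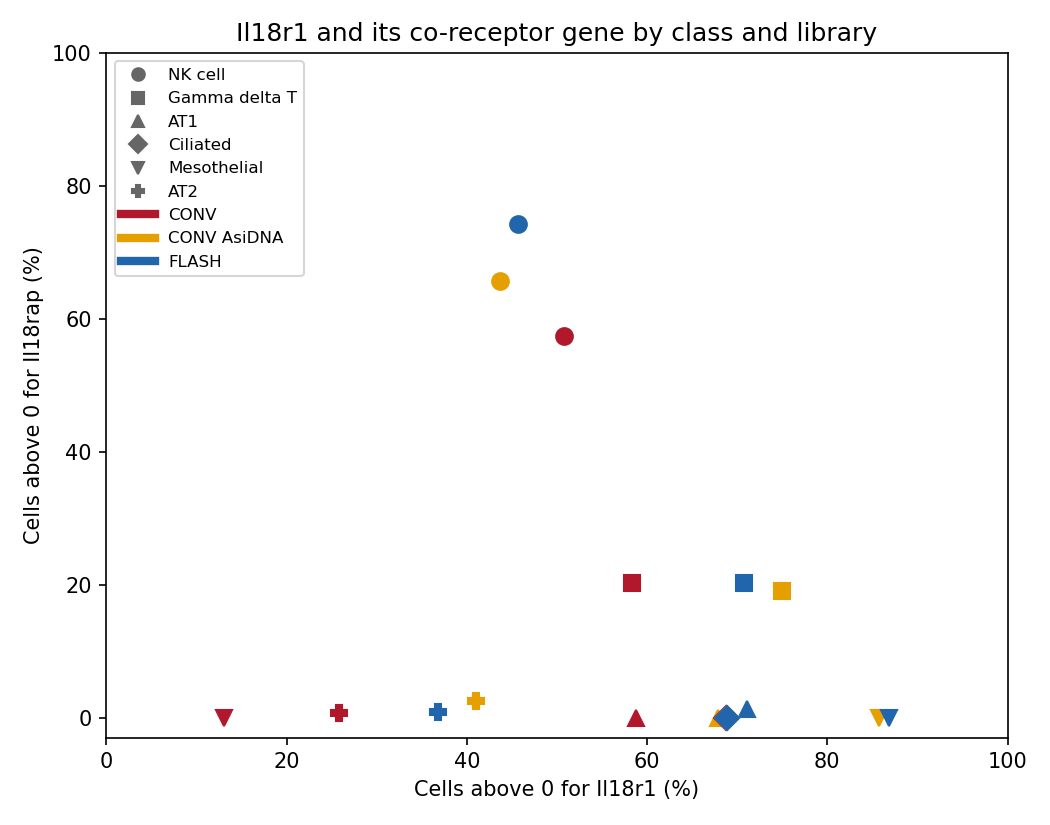
Share of cells above 0 for Il18rap (vertical axis, percent) against that for Il18r1 (horizontal axis, percent), one point per class and library. NK cells lie high for Il18rap and between 43.7% and 50.8% for Il18r1. Gamma delta T cells lie near 20% for Il18rap, and the AT1, AT2, ciliated and mesothelial points lie along the bottom.

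The mesothelial gate set CONV apart for Il18r1. The CONV level was 26.3 CPM, with 3 of 23 cells above 0 (13.0%, 2.78 to 33.6). The CONV AsiDNA level was 608, with 36 of 42 (85.7%, 71.5 to 94.6), and the FLASH level 868, with 33 of 38 (86.8%, 71.9 to 95.6). The log2 ratios of CONV to the others were -4.09 and -4.60. The label did not hold equally in the 3 libraries. Msln and Upk3b, gate genes, were above 0 in 91.3% and 100% of the 23, but at lower levels, with Msln at 1448, 3667 and 3687 CPM. Lrrn4 and Nkain4, also gate genes, were lowest in CONV too. The remaining gate genes were not: Upk1b was highest in CONV, at 1027, 702 and 989 CPM, and Wt1 was at 755, 769 and 575. They also held fibroblast genes: Col1a2 was at 5697, 382 and 725 CPM, and Pdgfra was above 0 in 43.5% of these and listed at 0 in all others. Markers of a further lineage, at least 3 in the cell, were found in 11 of 23 CONV cells, 12 of 42 and 11 of 38. Of 3 members tested, Il18r1 and Il33 were past 2-fold in both pairs with CONV and none in the last, where 30.5%, 31.6% and 8.62% of all genes were. The log2 ratio of CONV to CONV AsiDNA for Il33 was -1.01, and -0.79 with classes taken from clusters. Without the cells that hold markers of a further lineage under 20 CONV cells were left, so these ratios with CONV could not be recomputed. The part of the other cell type in these values was not tested.

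Across all classes that share no cell, 61 pairs of member and class could be compared for CONV against CONV AsiDNA, 58 for CONV against FLASH and 65 for CONV AsiDNA against FLASH. Of these, 11, 9 and 4 were at or past 2-fold, which is 18.0%, 15.5% and 6.15%. For all genes the shares were 10.5%, 11.5% and 5.57%. Of the member pairs past 2-fold against CONV AsiDNA 3 were higher and 8 lower in CONV, and against FLASH 2 were higher and 7 lower. The lower ones of both comparisons include Il1b in alveolar macrophages and Il1a in aerocytes, each listed at 0 in CONV. They also include Il18r1 and Il33 in the mesothelial gate, where the label did not hold equally in the 3 libraries. These were kept in the counts and shares given here. The directions of all genes were not pooled and differed by class. Against FLASH, 261 genes were higher and 261 lower in cDC1 of CONV, and 576 and 565 in general capillary cells. In mesothelial cells 513 were higher and 765 lower, and in interstitial macrophages 364 and 91. Against CONV AsiDNA these counts were 149 and 296, 468 and 490, 497 and 735, and 213 and 70. The same class can count in more than one pair and the libraries are shared between pairs, so these shares are descriptions. AT1 cells and gamma delta T cells, with Il18r1 tested in both and Il1r1 in the latter, added none, where 19.6%, 22.8% and 15.2% and 10.5%, 13.3% and 9.82% of all genes were past 2-fold.

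The inflammasome genes were counted from a list of 8. In alveolar macrophages all 8 could be compared and none was past 2-fold in any pair, with median log2 ratios of -0.31 and -0.37 for CONV against the others. In neutrophils 5 could be compared. Casp1, the protease that ripens Il1b, was at 5.34, 29.5 and 37.9 CPM, past 2-fold lower in CONV in both pairs. Nek7, a partner of Nlrp3, was at 14.7 and 36.9 CPM and listed at 0 in FLASH. Both genes were low, and the CONV level of Casp1 was under the 10 CPM added in each ratio. Of all genes in neutrophils 14%, 15.5% and 11% were past 2-fold in the 3 pairs. Casp4, the protease that senses bacterial lipid, was at 147, 158 and 220.0 CPM in neutrophils. In gamma delta T cells 6 could be compared, and 3, 1 and 2 were past 2-fold in the 3 pairs, beside 10.5%, 13.3% and 9.82% of all genes there. Those of the pairs with CONV were higher in CONV, with Nek7 at 162, 70.2 and 110.2 CPM. Casp4 was past 2-fold higher in CONV than in both others in AT2 and ciliated cells too, at 14.2 and 39.1 CPM in CONV and at most 4.19 in the others. Only 2 and 3 genes of the list could be compared there. Of all genes, 4.79% and 5.7% were past 2-fold in AT2 cells. Of 10490 in ciliated cells, 155 were higher and 79 lower against CONV AsiDNA, and 216 and 96 against FLASH. In patrolling monocytes Casp4 was past 2-fold lower in CONV than in CONV AsiDNA, beside 17.4% of all genes. The adaptor Pycard was at 172, 427 and 320.2 CPM in regulatory T cells, 233, 294 and 297 in NK cells and 278, 228 and 208 in cDC2, but at most 5.42 in neutrophils. Of 7 signalling genes downstream of the receptors, 6 could be compared in neutrophils, and 1, 3 and 1 were past 2-fold in the 3 pairs, beside 14%, 15.5% and 11% of all genes there. In alveolar macrophages none of 7 was, beside 4.88%, 5.79% and 0.991% of all genes. Another 5 ligands of the family, Il36a, Il36b, Il36g, Il36rn and Il1f10, were listed for this comparison and had no row in the tables used here.

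The genes with the pattern most like each member were ranked by Pearson's r of log2(CPM + 10) over 96 sums, each of a class in a library with at least 20 cells, among 14350 genes. The sums of one class share their cell type and those of one library their depth, so r is a description. Il1rn was closest to C5ar2 (r = 0.96), Clec5a (0.95) and Wfdc21 (0.94), Il1b to Cd80 (0.93), Nlrp3 to Alox5ap (0.93), which serves leukotriene synthesis, and Il18 to B3gnt7 (0.92). Il33 was closest to Lrp2 (0.91), the endocytic receptor megalin, Il1a to Tbxas1 (0.87), Il1r2 to Dhrs9 (0.82), Il18r1 to Prkcz (0.82), Il1r1 to Acyp2 (0.79) and Il1rl1 to 4932438H23Rik (0.74). Slc18a2 (0.72), which loads amines into vesicles, was next but one for Il1rl1.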

How the data were processed

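Single-cell RNA of 3 lungs was captured with 10x Genomics 3′ chemistry. The submitters' processing notes name Cell Ranger 6.0.0 and mm10, and the paper names R and Seurat. Per gene and cell, the authors deposited a natural log, taken after adding 1 to a whole number. The sources used here do not give how depth and background were adjusted, so a share above 0 can reflect that adjustment, no count model was used and no gene at 0 was given a limit. The members and gene lists were chosen with earlier results of these data known.

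Values were converted back to whole numbers. Cells with under 200 genes above 0 or with over 20% of their adjusted counts from mitochondrial genes were left out, 3 cells in all. Of 29 classes, 28 had cells. No doublet caller was run, and cells with at least 3 markers of another lineage were removed as an alternative. Ratios between libraries are log2 of CPM + 10, in classes of at least 20 cells per library and for genes with a sum of at least 20, and 2-fold was the limit for a call. The named genes are the 10 members, each in the class with its highest mean CPM and in classes within 4-fold of it, fixed pathway lists, and the 3 genes most like each member. Members are also given in classes beyond that limit, which this rule did not choose. Among them are Il1b in cDC2, Il1rl1 in regulatory T cells, Il1r1 in general capillary cells and Il33 in mesothelial cells. With 1 library per condition no p-value was computed. Shares carry exact Clopper-Pearson 95% intervals. Ratios and intervals were tested on simulated data. The alternatives were a gate of 4 markers, Leiden clusters, at least 500 genes per cell, 1000 adjusted counts per cell, a prior of 1, a sum of 50, equal weight per cell and, chosen after seeing the data, cells without shared barcodes. Gene positions are from GENCODE (GRCm38). A further 4 tables, whose 12 per-sample columns match no sample here, hold the authors' comparisons or identifiers of another organism and were not used. Tools were scanpy 1.11.5, scipy 1.17.1, numpy 2.4.6 and matplotlib 3.10.9 under Python 3.11.15.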

Additional observations from a re-analysis of the deposited data

How the results depend on the processing

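No paired analysis was possible because each condition has 1 library. Shares of cells above 0 depend on depth. With every cell thinned to 1000 adjusted counts, 53 of 60 shares left their interval and 7 did not. Il33 was above 0 in 43.4%, 54.4% and 54.5% of CONV, CONV AsiDNA and FLASH AT2 cells, Il1rl1 in 39.4%, 44.4% and 31.3% of ILC2 and in 79.8% and 62.8% of CONV and CONV AsiDNA mast cells and basophils, Il18 in 25.1%, 40.8% and 43.2% of alveolar macrophages and Il1rn in 13.3%, 25.0% and 27.0%, so CONV was lowest for the last 2 genes with and without thinning. A gate of 4 markers gave Il1rl1 in 81.1% of CONV ILC2, and cluster classes gave Il18 in 73.7% of CONV alveolar macrophages. Cluster classes also gave Il18r1 in 41.9% and 50.0% of CONV and FLASH AT1 cells. In all, cluster classes moved 5 shares out of their interval and left 55 inside. With a gene sum of at least 50, 10 of 45 background shares of genes past 2-fold were lower by over 1.5 times, all for CONV AsiDNA against FLASH. Of the ratios compared, none changed sign where it was past 2-fold. Besides Il1r1 in general capillary cells, cluster classes brought Il1rl1 in cDC2 (CONV against CONV AsiDNA, -0.97), Il33 in mesothelial cells (CONV against CONV AsiDNA, -0.79) and Il1rl1 in regulatory T cells (CONV AsiDNA against FLASH, -0.95) below 2-fold. Leaving out cells with markers of another lineage moved none of the 58 shares out of its interval and kept the call of each of the 56 ratios it could give, and it left too few CONV mesothelial cells for the ratios of Il18r1 and Il33. The clusters joined both fibroblast gates in 1 class. The cause of these shifts was not tested. Leaving out cells with shared barcodes or with under 500 genes moved no share out of its interval.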
